A study of Mus musculus with 8 samples.

Results

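The MAP kinase phosphatases of the dual-specificity phosphatase (DUSP) family are described here in esophagi of healthy mice with and without monoacylglycerol lipase (MGL), the enzyme that degrades the endocannabinoid 2-arachidonoylglycerol. The members were found by symbol in the deposited gene counts, namely Dusp1, Dusp2, Dusp4, Dusp5, Dusp6, Dusp7, Dusp8, Dusp9, Dusp10 and Dusp16. All 10 were among the 32849 symbols listed and all 10 had at least 1 count, and 9 of them were among the 14864 genes that passed the filter on low counts and were tested. Dusp9 was not tested. Whole-tissue poly(A) RNA of frozen esophagus was sequenced for 4 MGL KO libraries, from mice with a global deletion of Mgll, and for 4 MGL WT libraries, from mice with the gene intact. According to the study's methods, the MGL KO line was kept in-house together with WT littermates, and no further allele or treatment is named for either group of healthy mice in this comparison. Male and female mice were used, at a general age of 8 to 12 weeks that is not tied to these libraries. The labels give neither the age nor the sex behind a library, and they number the samples of each group from 1 to 4 without naming the animals, so p-values measure the spread between these samples.

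A MAP kinase is switched on when it is phosphorylated on a threonine and a nearby tyrosine of its activation loop, and a MAP kinase phosphatase removes both phosphates and switches it off again. The family falls into a nuclear group (Dusp1, Dusp2, Dusp4 and Dusp5) whose genes are typically induced by the signal that their products end, a cytoplasmic group that acts on the kinase ERK (Dusp6, Dusp7 and Dusp9), and a group that acts mainly on the stress-activated kinases JNK and p38 (Dusp8, Dusp10 and Dusp16). The mouse esophagus is lined by a stratified squamous epithelium and is surrounded by striated muscle, tissues in which MAP kinases take part in growth, differentiation and the response to stress.

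The promoters differed in the elements they hold. In the 300 bases from 250 before to 50 after the start of each canonical transcript (GENCODE vM39, GRCm39), the cAMP response element TGACGTCA was found in Dusp1 and Dusp8, against 2.45% of 21751 promoters of protein-coding genes. These stretches, read 5′ to 3′ on the strand of the gene and ending at the last base before its transcript start, are shown because they carry the elements by which the members differ. Capitals mark TGACGTCA, its core TGACG on either strand, and in Dusp5 the pair of CArG boxes, the site of serum response factor.
Dusp1, chr17:26727494-26727643, reverse strand: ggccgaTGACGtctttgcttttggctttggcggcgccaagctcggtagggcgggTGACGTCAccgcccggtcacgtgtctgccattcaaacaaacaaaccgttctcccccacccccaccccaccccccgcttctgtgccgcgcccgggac
Dusp8, chr7:141649053-141649152, reverse strand: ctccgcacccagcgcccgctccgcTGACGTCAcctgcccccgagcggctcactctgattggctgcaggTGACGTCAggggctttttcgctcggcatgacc
Dusp5, chr19:53517432-53517531, forward strand: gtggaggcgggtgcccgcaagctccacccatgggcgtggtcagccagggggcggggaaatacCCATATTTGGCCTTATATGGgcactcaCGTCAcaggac

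Dusp1 had 1 cAMP response element, at -96 to -89 from the start, and a further core at -144 to -140. Dusp8 had 2 full elements, at -76 to -69 and at -32 to -25. The core TGACG was present in 5 members, the others being Dusp4, Dusp5 and Dusp16, and in 22.6% of all promoters, where each full element also counts as a core on both strands. The 2 CArG boxes of Dusp5 lay side by side, at -38 to -29 and -28 to -19, and 1.54% of all promoters had at least 1. The GC box GGGCGG was found in all members but Dusp6 and in 42.5% of all promoters. Neither the AP-1 site TGANTCA, which 7.14% of promoters hold, nor the glucocorticoid receptor motif TGTTCT, which 17.0% hold, was in the window of any member. Every motif was searched on both strands, and a match describes letters in the window, not binding.

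**Figure D1:**
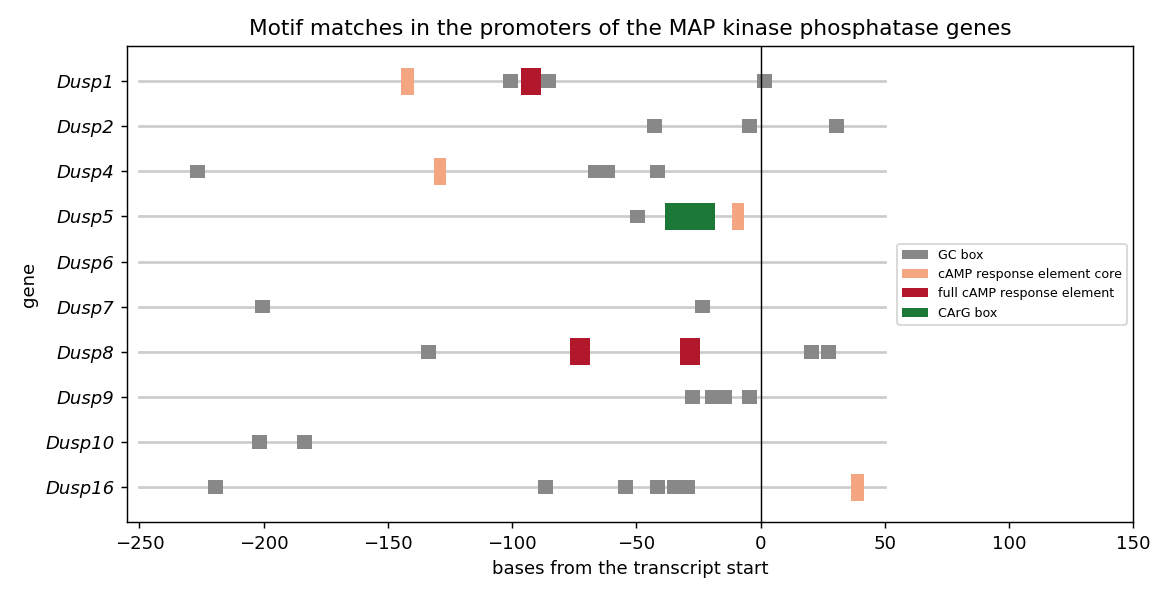
Motif matches in the window from 250 bases before to 50 bases after the transcript start (x axis, bases) of each of the 10 genes (y axis). The full cAMP response element is seen in Dusp1 (1 match) and Dusp8 (2 matches), the CArG boxes in Dusp5, and no match of these kinds or of the GC box in Dusp6.

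The total count per library ranged from 13.5 to 17.1 M, and 3 counts, up to which a gene with a count of 0 may reach, equalled 0.167 to 0.271 normalized CPM (counts divided by the M counts of the library over tested genes after TMM scaling). Mgll lay between 12.6 and 16.0 CPM in MGL KO and between 66.6 and 88.3 CPM in MGL WT libraries, as the labels state. Markers of squamous epithelium and of skeletal muscle were present in every library. MGL KO replicate 2 stood apart by its low differentiated squamous markers (2244.6 CPM over 13 genes, others of its group at least 6927.8) and high skeletal muscle markers (91856.2 CPM over 14 genes, others at most 60385.5), and MGL KO replicate 4 by its airway markers (8969.0 CPM over 12 genes, others of its group at most 938.8). In MGL WT, replicate 3 differed in the same directions as MGL KO replicate 2. It held 3270.6 CPM of differentiated squamous markers (others of its group at least 7075.9) and 77704.0 CPM of skeletal muscle markers (others at most 59971.2). MGL KO replicates 2 and 4 are named wherever they bear on a member. In bulk tissue, fewer cells of a type and less RNA per cell cannot be told apart.

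The family was chosen by its symbols with earlier results of this same contrast in view, above all that of Dusp1, so the differences between MGL KO and MGL WT of its members are given as a description, with no test. Among the 14864 genes tested with edgeR's quasi-likelihood test, 7 (0.0471%) had an adjusted p under 0.05 and 1285 (8.65%) an unadjusted p under 0.05. Of the 9 tested members, 1, Dusp1, was among the former and 6 (Dusp1, Dusp4, Dusp6, Dusp7, Dusp8 and Dusp16) among the latter, counts from which nothing is read. That call was kept without MGL KO replicate 1 and was lost, leaving 0 of 9, when any other single library was left out and when MGL KO replicates 2 and 4 were left out together. With all libraries it lay just under the threshold in this test. Dusp1 was also called by edgeR's exact test, DESeq2 and limma-voom with quality weights. Every MGL KO library lay above every MGL WT library for 3 of the 9 tested members, Dusp1, Dusp6 and Dusp16, against 404 of all tested genes (2.72%), and the reverse held for 0 members, against 491 genes (3.30%). The log2 fold change, MGL KO minus MGL WT, was positive for 6 and negative for 3 of the tested members. Its median was 0.27 over the 9 and 0.24 without Dusp1, beside 0.02 over all tested genes, 53.0% of which had a positive value.

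Dusp1 (chromosome 17, 26724564 to 26781102, reverse strand, GRCm39) encodes the founding MAP kinase phosphatase, a nuclear enzyme for p38, JNK and ERK. Its expression was 290.3, 191.8, 157.0 and 153.5 CPM in MGL KO replicates 1 to 4 and 48.2, 60.0, 56.2 and 63.0 CPM in MGL WT replicates 1 to 4. The groups were far apart: the lowest MGL KO library, replicate 4, was well above the highest MGL WT library, also a replicate 4. Within MGL KO, replicate 1 stood above the other 3, and the coefficient of variation was 32.2% in MGL KO and 11.3% in MGL WT. The MGL KO mean was 3.49 times the MGL WT mean, and 2.94 times without MGL KO replicate 1. This gave a log2 fold change of 1.80 with a standard error (SE) of 0.21. When libraries were left out in turn, it lay between 1.56, without MGL KO replicate 1, and 1.91, without MGL KO replicate 4. It was 1.98 without MGL KO replicates 2 and 4 and 1.81 with the skeletal muscle markers or the differentiated squamous markers as a covariate. The locus shares 38 exon bases with Ergic1 on the opposite strand, and whether the counting used strand is not given in the sources used here.

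Dusp4 (chromosome 8, 35274442 to 35287048, forward strand) encodes a nuclear phosphatase that is closely related to DUSP1. It was measured at 52.2, 22.6, 18.9 and 27.4 CPM in MGL KO replicates 1 to 4 and at 13.8, 13.0, 9.47 and 21.5 CPM in MGL WT replicates 1 to 4. The groups overlapped through MGL KO replicate 3, which was below MGL WT replicate 4, while the other 3 MGL KO libraries were above all MGL WT libraries. MGL KO replicate 1 again held the highest value. The means were 30.3 ± 15.0 CPM in MGL KO and 14.4 ± 5.08 CPM in MGL WT (SD, n = 4), with a log2 fold change of 1.07 (SE 0.35). Without MGL KO replicate 1 this value was 0.68.

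Dusp2 (chromosome 2, 127177957 to 127180296, forward strand) encodes a phosphatase that is best known from activated leukocytes. Its levels were low, with 2.88, 2.89, 1.85 and 3.20 CPM in the MGL KO and 5.97, 2.45, 3.29 and 2.67 CPM in the MGL WT libraries, from 30 to 107 counts. Its exons share 615 of their 2125 bases with the antisense RNA gene Gm74572, whose reads cannot be told apart from those of Dusp2 if strand was not used. MGL WT replicate 1 was the highest library by far, and the remaining 7 libraries overlapped. Between the groups the log2 fold change was -0.41 (SE 0.34), and -0.05 without MGL WT replicate 1. That library also held the most leukocyte marker signal of its group, at 1025.2 CPM summed over 10 genes against 203.5 to 470.4 in the other MGL WT libraries and 204.2 to 1497.7 in MGL KO. Over all libraries, however, Dusp2 had an r of 0.56 (rho 0.31) with these markers, and of -0.51 without MGL KO replicate 4, which held the most leukocyte signal, and MGL WT replicate 1. Of the 10 leukocyte markers 6 were tested, of which 1 had a positive log2 fold change, 3 (Itgam, Adgre1 and Csf1r, all lower in MGL KO) had an unadjusted p under 0.05 and 0 were called by edgeR or DESeq2, and Cd3e, Cd8a and Siglecf had 0 counts in at least 1 library each. The part of leukocytes in the level of Dusp2 was not tested.

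Dusp5 (chromosome 19, 53517532 to 53530862, forward strand) encodes a nuclear phosphatase for ERK. It reached 5.02, 0.632, 5.18 and 3.54 CPM in MGL KO replicates 1 to 4 and 5.19, 3.54, 2.37 and 3.46 CPM in MGL WT replicates 1 to 4. MGL KO replicate 2 was far below all other libraries, from 7 counts, and the others overlapped. The means were nearly equal, at 3.59 ± 2.11 and 3.64 ± 1.16 CPM (SD, n = 4), with a log2 fold change of -0.01 (SE 0.53). This value changed sign, being 0.33 without MGL KO replicate 2 and -0.23 without MGL KO replicate 3, so no direction is given for Dusp5. The antisense RNA gene Gm50394 shares 555 of the 2481 exon bases of Dusp5, with the same limit.

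Among the ERK-directed cytoplasmic members, Dusp6 (chromosome 10, 99086564 to 99103361, forward strand), whose product is the main feedback phosphatase of ERK, was at 49.2, 39.8, 40.4 and 49.6 CPM in MGL KO and 34.9, 29.9, 35.7 and 36.1 CPM in MGL WT. The groups did not overlap, with MGL KO replicates 2 and 3 closest to the MGL WT libraries. With a log2 fold change of 0.39 (SE 0.11), Dusp6 kept values between 0.33 and 0.45 in the fits that left out 1 library each. The Dusp6 exons share 685 bases with the antisense RNA gene Gm56965.

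Dusp7 (chromosome 9, 106245143 to 106252923, forward strand), the closest relative of Dusp6, was at 74.8, 58.6, 70.8 and 66.8 CPM in MGL KO and 59.1, 56.6, 55.2 and 61.9 CPM in MGL WT. MGL KO replicate 2 fell within the MGL WT range, and the other 3 MGL KO libraries were above it. Means of 67.7 ± 6.94 and 58.2 ± 2.98 CPM (SD, n = 4) gave a log2 fold change of 0.22 (SE 0.10). The values varied little, with coefficients of variation of 10.2% and 5.13%. Dusp9 (chromosome X, 72679169 to 72687124, forward strand), known mainly from placenta, embryo and kidney, had 3, 3, 1 and 1 counts in MGL KO and 2, 1, 1 and 6 counts in MGL WT libraries. It exceeded 3 counts in MGL WT replicate 4 alone, and no ratio is given at this depth.

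Among the members directed at JNK and p38, Dusp8 (chromosome 7, 141633226 to 141649580, reverse strand), a gene known from brain, heart and muscle, was at 44.3, 69.3, 49.0 and 31.0 CPM in MGL KO and 24.2, 36.1, 36.5 and 33.4 CPM in MGL WT. MGL KO replicate 4 lay inside the MGL WT range and the other 3 MGL KO libraries above it. The log2 fold change of 0.57 (SE 0.24) was 0.35 without MGL KO replicate 2, the highest library, and 0.73 without MGL KO replicate 4, the lowest of its group. With both left out it was 0.52, and with the skeletal muscle markers as a covariate 0.56.

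Dusp10 (chromosome 1, 183745499 to 183807842, forward strand), which encodes a phosphatase of p38 and JNK, was at 30.6, 56.2, 35.3 and 30.2 CPM in MGL KO and 33.8, 36.0, 68.0 and 42.2 CPM in MGL WT. One library in each group was far above the rest, MGL KO replicate 2 and MGL WT replicate 3, and the groups overlapped. Its log2 fold change of -0.24 (SE 0.27) was -0.49 without the former and 0.03 without the latter, so its direction rests on these libraries. Dusp10 shares 808 exon bases with the protein-coding gene 1700056E22Rik on the opposite strand.

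Dusp16 (chromosome 6, 134692431 to 134784241, reverse strand), which encodes a phosphatase for JNK and p38 and lies on the chromosome that carries Mgll, was at 37.5, 38.4, 37.6 and 40.2 CPM in MGL KO and 28.5, 33.6, 30.2 and 35.7 CPM in MGL WT. The groups did not overlap, and the gap between MGL WT replicate 4 and the lowest MGL KO library was small. Dusp16 was the steadiest member in MGL KO, with a coefficient of variation of 3.27% there and 10.2% in MGL WT. A log2 fold change of 0.27 (SE 0.10) resulted, which lay between 0.21 and 0.32 in the fits that left out 1 library each.

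**Figure D2:**
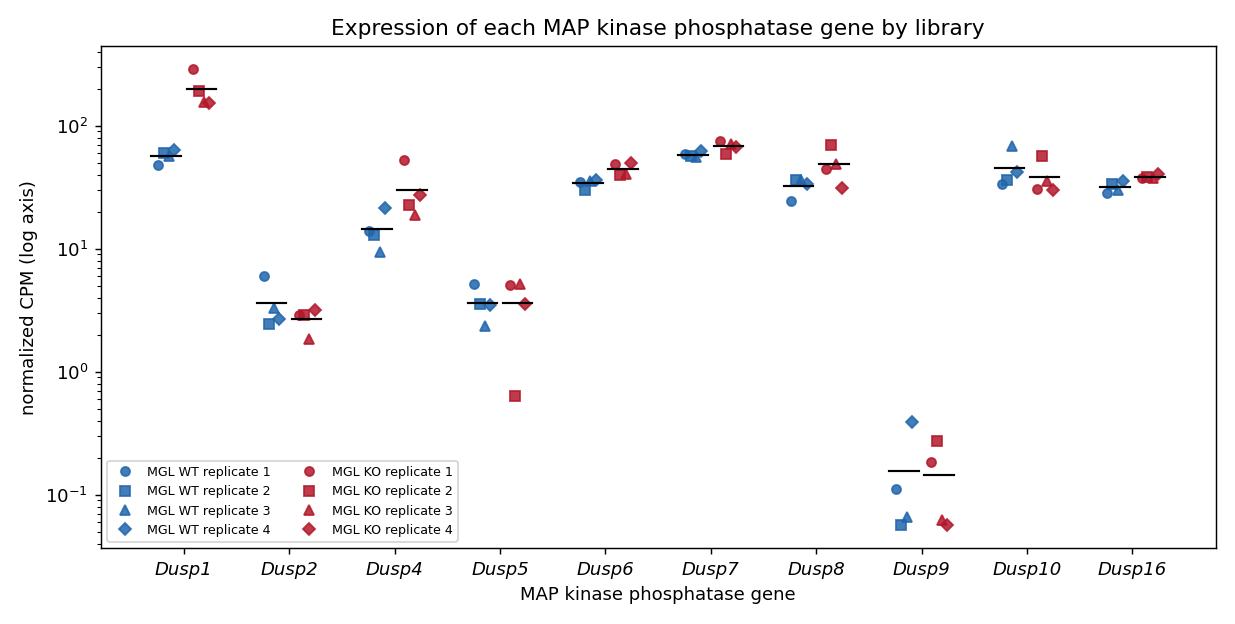
Normalized CPM (y axis, log scale) of each phosphatase gene (x axis) in the 4 MGL WT (blue) and 4 MGL KO (red) libraries, with 1 symbol per replicate and a line at the group mean. Dusp1 is at 153.5 to 290.3 CPM in MGL KO against 48.2 to 63.0 CPM in MGL WT, and Dusp9 rests on 1 to 6 counts.

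Per kilobase of exon, the family spanned a wide range of levels, and its order was led by Dusp1 also in MGL WT esophagi. The MGL WT level was 17.1 ± 1.93 CPM per kb (SD, n = 4) for Dusp1, 14.2 ± 0.728 for Dusp7, 10.1 ± 0.847 for Dusp6, 7.40 ± 2.59 for Dusp10 and 5.02 ± 1.77 for Dusp4. It was 3.98 ± 0.705 CPM per kb for Dusp8, 3.62 ± 0.37 for Dusp16, 1.69 ± 0.763 for Dusp2, 1.47 ± 0.469 for Dusp5 and 0.0449 ± 0.0455 for Dusp9. The ranges of neighbours in this order did not overlap between Dusp7 and Dusp6, Dusp16 and Dusp2, or Dusp5 and Dusp9, and overlapped at each other step, including Dusp1 (14.5 to 19.0 CPM per kb) and Dusp7 (13.5 to 15.1 CPM per kb). In each of the 8 libraries Dusp1 nevertheless ranked first, Dusp7 second and Dusp9 last on this scale. In MGL KO the mean level was 59.6 CPM per kb for Dusp1 and 16.5 for Dusp7, and Dusp4, at 10.5, moved ahead of Dusp10, at 6.26. When the longest transcript was used as the length in place of all exons, 5 of the 10 genes kept their place, and Dusp4, Dusp6, Dusp8, Dusp10 and Dusp16 took other places in the middle of the order. On that scale Dusp1 was still first and Dusp9 last in each of the 8 libraries, but Dusp7 was second in only 4 of them, with Dusp4, Dusp6 or Dusp10 ahead of it in the others.

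**Figure D3:**
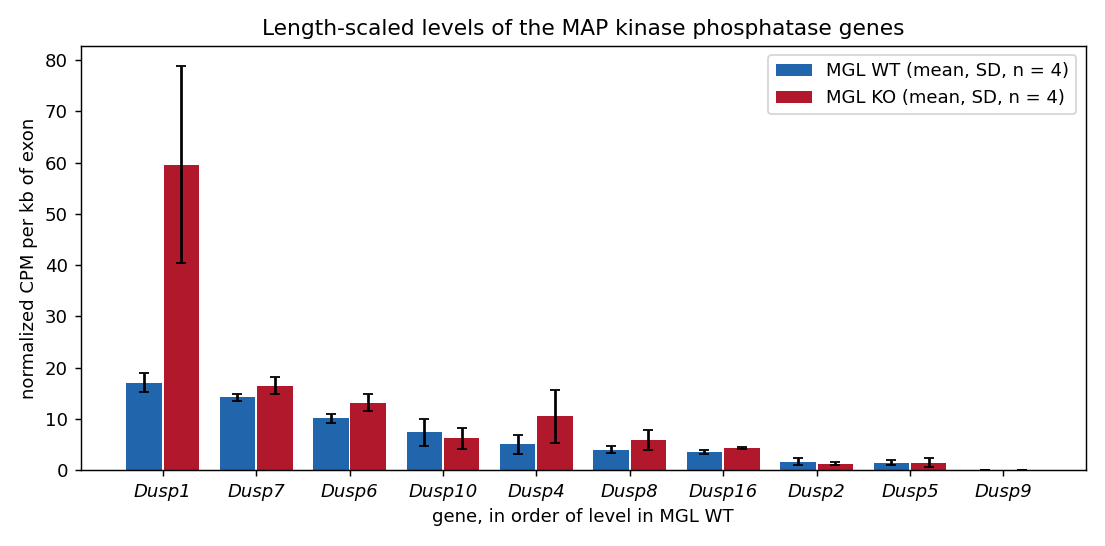
Mean level (y axis, normalized CPM per kb of exon) of each phosphatase gene in MGL WT (blue) and MGL KO (red) esophagi, ordered by the MGL WT level, with bars for the SD of 4 libraries. Dusp1 leads at 17.1 CPM per kb in MGL WT and 59.6 CPM per kb in MGL KO.

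The weight of Dusp1 within the family thus differed between the groups. Dusp1 made up 49.5%, 39.9%, 37.7% and 37.8% of the summed CPM of the 10 genes in MGL KO replicates 1 to 4 and 19.0%, 22.1%, 18.9% and 21.0% in MGL WT replicates 1 to 4. The sum over the other 9 genes was 252.1 to 296.7 CPM in MGL KO and 205.5 to 240.8 CPM in MGL WT libraries. The groups did not overlap in this sum, in which the genes with the most counts weigh most, and none of these genes was called. As the family was chosen with this contrast in view, nothing is read from the sum.

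Around the group means, the members did not vary as 1 unit. Over the 36 pairs of tested members, the Pearson correlation of log2 CPM with group means removed was positive for 18 pairs, with a median of 0.00 (n = 8 libraries). All pairs were measured in the same libraries, which differed in depth and tissue composition. The highest values were those of Dusp5 with Dusp7 (r = 0.88, Spearman's rho 0.71), Dusp1 with Dusp4 (r = 0.73, rho 0.55) and Dusp8 with Dusp10 (r = 0.73, rho 0.86). Without the 2 libraries farthest from the median of the first gene they were 0.41, 0.44 and 0.59. The lowest value was that of Dusp5 with Dusp10 (r = -0.81, rho -0.67), which was -0.19 without 2 libraries.

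Some of these pairs varied with the tissue markers of the libraries. Dusp8 and Dusp10 went with the summed skeletal muscle markers, at r = 0.95 (rho 0.83) and 0.84 (rho 0.83), and at 0.79 and 0.94 without MGL KO replicates 2 and 4, the libraries with the most and the least muscle signal. With the smooth muscle markers r was 0.89 for Dusp8 and 0.91 for Dusp10, but Des, which skeletal muscle also expresses, gave 71.1% to 86.6% of that sum. Without Des, r was 0.32 (rho 0.21) for Dusp8 and 0.51 (rho 0.64) for Dusp10, and 0.31 and -0.06 without MGL WT replicates 1 and 2. All 14 skeletal muscle markers were tested, 8 of them had a positive log2 fold change, 1 had an unadjusted p under 0.05, 0 were called by edgeR's quasi-likelihood test or by DESeq2, and none was at 0. Their sum ranged from 37342.7 to 91856.2 CPM in MGL KO and from 48982.4 to 77704.0 CPM in MGL WT. Dusp1, by contrast, had an r of 0.32 (rho 0.26) with the skeletal muscle markers. Values of like size and negative sign were seen with other lists, for Dusp8 with the leukocyte (r = -0.88, rho -0.81) and adipocyte markers (-0.79, rho -0.81) and for Dusp10 with the basal (-0.92, rho -0.31) and differentiated squamous markers (-0.85, rho -0.36). Without the 2 libraries farthest in each list they were -0.41, -0.65, 0.09 and -0.13. For Dusp10 with the endothelial markers r was -0.70 (rho -0.57), and -0.71 without 2 libraries. For Dusp1 it was -0.60 (rho -0.57) with the adipocyte, -0.52 (rho -0.36) with the leukocyte and -0.46 (rho -0.60) with the endothelial markers. Without the 2 libraries farthest in each list these values of Dusp1 were -0.63, 0.11 and -0.05.

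Dusp5 and Dusp7 went with the basal squamous markers, both at r = 0.89 (rho 0.64 and 0.93). Without MGL KO replicate 2 and MGL WT replicate 3, the libraries with the least basal signal, r was 0.75 for Dusp7 and 0.27 for Dusp5, so the value of Dusp5 rests on these libraries. With the differentiated squamous markers r was 0.80 (rho 0.60) for Dusp5 and 0.76 (rho 0.60) for Dusp7, and 0.01 and 0.10 without the same 2 libraries. Further lists gave values of like size. For Dusp5, r was 0.81 (rho 0.71) with the endothelial and -0.71 (rho -0.38) with the skeletal muscle markers, and 0.90 and -0.99 without the 2 libraries farthest in each list. For Dusp7 it was 0.63 (rho 0.48) with the endothelial markers, and 0.85 without 2 libraries. Of the 8 endothelial markers, all tested and none at 0, 0 had a positive log2 fold change, 2 had an unadjusted p under 0.05 and 0 were called, and they summed to 183.4 to 331.9 CPM in MGL KO and 253.4 to 327.2 CPM in MGL WT. With the basal squamous markers, Dusp1 had an r of 0.22 (rho 0.50), and of 0.95 without MGL KO replicate 2 and MGL WT replicate 3. All 10 basal markers were tested, 6 had a positive log2 fold change, and 0 were called or had an unadjusted p under 0.05. They summed to 3679.3 to 6481.0 CPM in MGL KO and 3995.4 to 5767.3 CPM in MGL WT. With the skeletal muscle or the differentiated squamous markers as a covariate, the log2 fold change was -0.21 or -0.29 for Dusp10, -0.09 or -0.19 for Dusp5 and 0.21 or 0.22 for Dusp7, and for each of the 9 tested members it differed from the value without a covariate by less than the spread between libraries. Covariates from the other marker lists were not fitted.

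**Figure D4:**
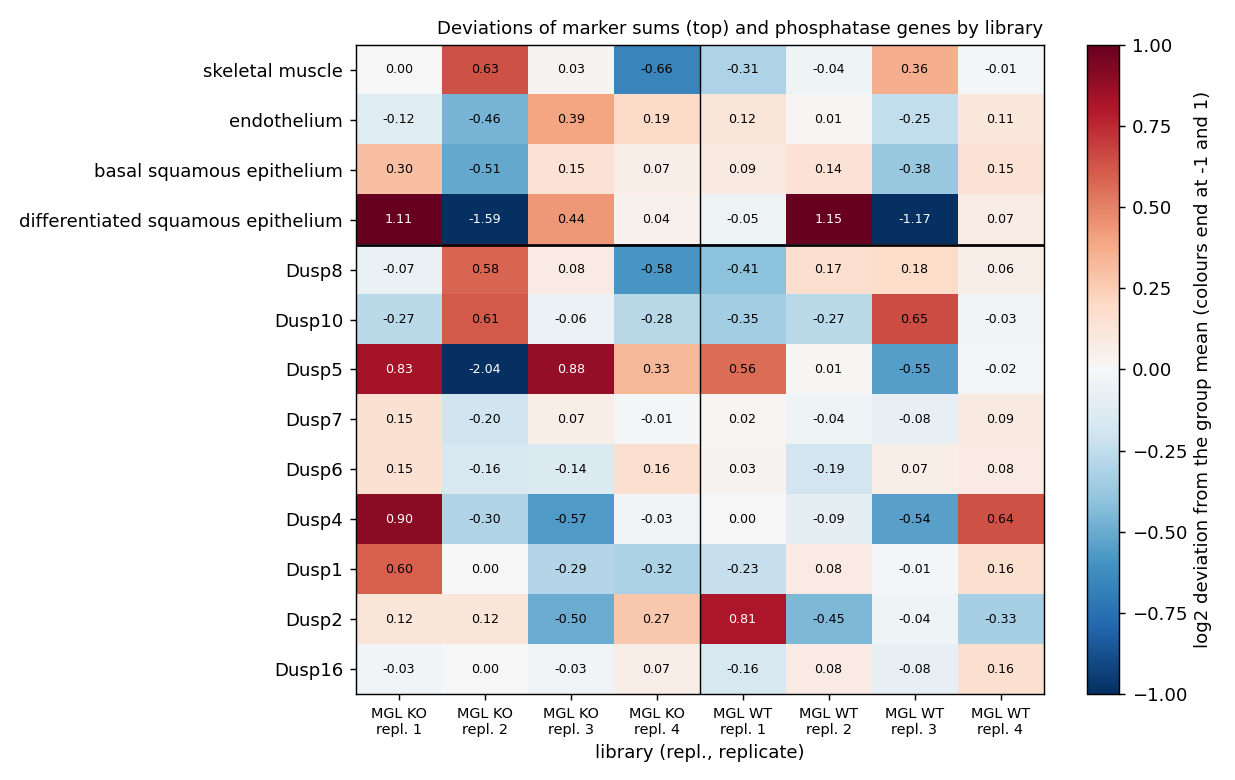
Log2 deviation from the group mean (colour and printed value) of 4 summed marker lists and the 9 tested phosphatase genes (y axis) in each library (x axis). Dusp8 and Dusp10 are high with the skeletal muscle markers in MGL KO replicate 2 (0.58 and 0.61), where Dusp5 is low (-2.04), and Dusp1 and Dusp4 are high in MGL KO replicate 1 (0.60 and 0.90).

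Among the other 14863 tested genes, the profile around the group means most like that of Dusp1 was that of Ciart (r = 0.972), a repressor of the circadian clock, followed by Dmd (0.962), which encodes dystrophin, Gphn (0.946), Fem1c (0.923) and Rb1 (0.921), the retinoblastoma gene. In mean level these genes did not share the difference of Dusp1 between the groups, with Ciart at 3.87 CPM in MGL KO and 5.10 CPM in MGL WT and Dmd at 128.4 and 121.9 CPM. The nearest genes were Selenos and Srprb for Dusp2 (both 0.957), Rbm41 (0.977) and Efcab14 (0.966) for Dusp4, Dpp4 (0.995) and Med13l (0.987) for Dusp5, and Smim24 (0.987) and Ccl25 (0.962) for Dusp6. They were Gulp1 (0.977) and Rpl24 (0.973) for Dusp7, Cltb (0.995) and 1110002E22Rik (0.985) for Dusp8, Fkbp8 (0.996) and Popdc2 (0.995) for Dusp10, and Fbxo2 (0.908) and Sorcs1 (0.874) for Dusp16. Each value is the largest of many over 8 libraries, and it describes these libraries. Without the 2 libraries farthest in the member, the values ranged from 0.55 (Selenos) to 0.99 (Cltb), with 0.77 for Fem1c and Rb1 and 0.79 for Srprb and Med13l. Levels were low for Rpl24 (0.736 CPM in MGL KO and 0.625 CPM in MGL WT), Fbxo2 (1.49 and 1.03 CPM) and Sorcs1 (1.69 and 1.38 CPM).

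Dusp1 belongs to the genes that are transcribed within minutes of a stimulus, and the other genes of that kind were compared with it. In the list of 19 immediate early genes, 17 had a positive log2 fold change, with a median of 0.42, and 5 had every MGL KO library above every MGL WT library, but 0 were called by edgeR's quasi-likelihood test. Over all tested genes, 53.0% had a positive value, 2.72% had every MGL KO library above and 8.65% had an unadjusted p under 0.05. At an unadjusted p under 0.05 there were 9 of these genes, and the exact test called 2, Fos and Atf3, DESeq2 4, with Fosb and Maff in addition, and limma-voom with quality weights 0. Fos, which encodes a subunit of AP-1, was at 120.4, 45.7, 19.0 and 44.7 CPM in MGL KO replicates 1 to 4 and at 5.30, 10.2, 9.53 and 9.52 CPM in MGL WT replicates 1 to 4. Its peak in MGL KO replicate 1 was shared with Dusp1 and Dusp4. Fosb was at 15.4, 2.53, 1.48 and 2.42 CPM in MGL KO and 1.00, 1.14, 0.723 and 0.522 CPM in MGL WT, with a log2 fold change of 2.67 (SE 0.77), and Atf3 had one of 1.47 (SE 0.33). Without MGL KO replicate 1 these values were 2.08 for Fos, 1.32 for Fosb and 1.18 for Atf3. Around the group means, the r to Dusp1 was positive for 14 of the 19 genes, with a median of 0.59 beside -0.03 over all other tested genes. The median rho was 0.31. Without MGL KO replicates 1 and 4, the libraries farthest in Dusp1, the median r was 0.18, so the likeness of the list rests largely on these libraries. In that setting r stayed high for Fos (0.92, from 0.88) but was -0.02 for Fosb (from 0.79) and 0.18 for Atf3 (from 0.70).

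Dusp1 is also known to be induced by glucocorticoids. The glucocorticoid response genes had a positive log2 fold change in 10 of 10 tested genes, with a median of 0.45, and 0 were called by edgeR's quasi-likelihood test. At an unadjusted p under 0.05 there were 5, and the exact test and DESeq2 each called 1, Errfi1. Over all tested genes, 53.0% had a positive value and 8.65% an unadjusted p under 0.05. Every MGL KO library was above every MGL WT library for Errfi1, which was at 50.6 ± 8.0 and 29.1 ± 7.15 CPM (SD, n = 4). Ddit4 had a log2 fold change of 0.82 (SE 0.33) and Tsc22d3 of 0.71 (SE 0.22), and for both MGL WT replicate 4 lay within the range of MGL KO. Tsc22d3 was at 203.4 CPM in that library, against 98.0 to 136.0 CPM in the other MGL WT and 195.0 to 248.7 CPM in the MGL KO libraries. Ddit4 was at 48.8 CPM there, against 15.5 to 27.3 and 33.1 to 60.7 CPM. MGL WT replicate 4 had the highest value of its group in 8 of the 10 genes, and without it the log2 fold change was 0.95 for Errfi1, 1.17 for Ddit4 and 0.97 for Tsc22d3. The r of the listed genes to Dusp1 around the group means was positive for 8 of 10, with a median of 0.40 (median rho 0.40), and a median of 0.33 without MGL KO replicates 1 and 4. Lists such as these were chosen with earlier results of these libraries known and are not independent of them.

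The members act on the MAP kinase pathway, whose other genes were described by role. Of the listed pathway genes that are not members of the family, 169 were found among the counts, 161 were tested and 0 were called by edgeR's quasi-likelihood test, the smallest adjusted p being 0.156, and 20 had an unadjusted p under 0.05. Every MGL KO library was above every MGL WT library for 8 genes (4.97%) and below for 7 (4.35%), and 82 had a positive log2 fold change, with a median of 0.01. Over all tested genes these shares were 2.72% above and 3.30% below, with 53.0% positive and 8.65% at an unadjusted p under 0.05. The edgeR exact test called 3 of the pathway genes on the filtered genes, Dusp18, Errfi1 and Zfp36, and DESeq2 called 4, with Fgf10 in addition, and limma-voom with quality weights 2, Dusp18 and Zfp36.

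The MAP kinases are the substrates of the members. Of 14 tested MAP kinase genes, 9 had a positive log2 fold change, with a median of 0.03, and for none did the groups separate. Mapk14, which encodes p38α, was at 178.2 ± 18.2 CPM in MGL KO and 175.5 ± 11.1 CPM in MGL WT, and Mapk12 at 127.8 ± 30.2 and 138.4 ± 30.0 CPM (SD, n = 4). Mapk10 and Mapk15, named here after their values were seen, had log2 fold changes of 1.66 and 1.95 that came from MGL KO replicate 4, at 11.8 and 65.8 CPM against at most 1.60 and 7.30 CPM elsewhere. Of the 7 MAP2K kinases, which phosphorylate the MAP kinases, Map2k6, a p38 activator, was lower in each MGL KO library, with a log2 fold change of -0.48 (SE 0.19, adjusted p = 0.546). Of 23 genes of RAS activation and MAP3K kinases, Map3k8 had all MGL KO libraries below, at 5.49 ± 2.01 and 10.4 ± 1.57 CPM (log2 fold change -0.92, SE 0.28).

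Upstream, the 19 tested ligand genes had a median log2 fold change of 0.02 and the 13 receptor genes of -0.13. Fgf10, a ligand of epithelial FGF receptors, was at 34.1 ± 6.13 CPM in MGL KO and 22.4 ± 1.55 CPM in MGL WT (SD, n = 4), with every MGL KO library above (adjusted p = 0.359), and Fgf2 was lower in each MGL KO library, with a log2 fold change of -0.42. Downstream, the 11 MAP kinase-activated kinases had a median of 0.01 and the 9 tested scaffolds of -0.08. Of 14 nuclear targets, Jund (log2 fold change 0.82, SE 0.27) and Srf (0.27, SE 0.10), the gene of the factor that binds CArG boxes, had every MGL KO library above. Of 12 ERK output genes, 8 had a positive log2 fold change, with a median of 0.21, and Spry2 had every MGL KO library below.

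Other negative regulators of the pathway differed in direction. Of 12 feedback inhibitors, Errfi1 (0.80), an inhibitor of the EGF receptor, and Spry1 (0.38) had every MGL KO library above, and Spry2 (-0.34) and Lrig1 (-0.21) every MGL KO library below. The 8 other phosphatases of MAP kinases had a median of 0.22, with overlapping groups in each. Of 14 atypical DUSP genes, which lack the kinase-binding domain of the family, the median was 0.04. Among these, Dusp18 was at 38.4, 43.0, 37.3 and 48.1 CPM in MGL KO and 25.3, 22.7, 27.2 and 18.1 CPM in MGL WT, so the groups did not overlap (log2 fold change 0.84, SE 0.15, adjusted p = 0.208), and Dusp26 was lower in each MGL KO library (-0.62, SE 0.25).

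Several MAP kinase phosphatase transcripts are short-lived, and 7 regulators of mRNA decay were therefore described. Zfp36, which encodes tristetraprolin, a decay factor for AU-rich transcripts, was at 63.1, 48.3, 53.0 and 60.4 CPM in MGL KO and 36.0, 29.5, 28.6 and 36.8 CPM in MGL WT. The groups were clearly apart, with a log2 fold change of 0.78 (SE 0.13) and an adjusted p of 0.156. Elavl1 (0.31), which encodes the stabilizing factor HuR, had every MGL KO library above, and Tia1 (-0.26) every MGL KO library below.

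**Figure D5:**
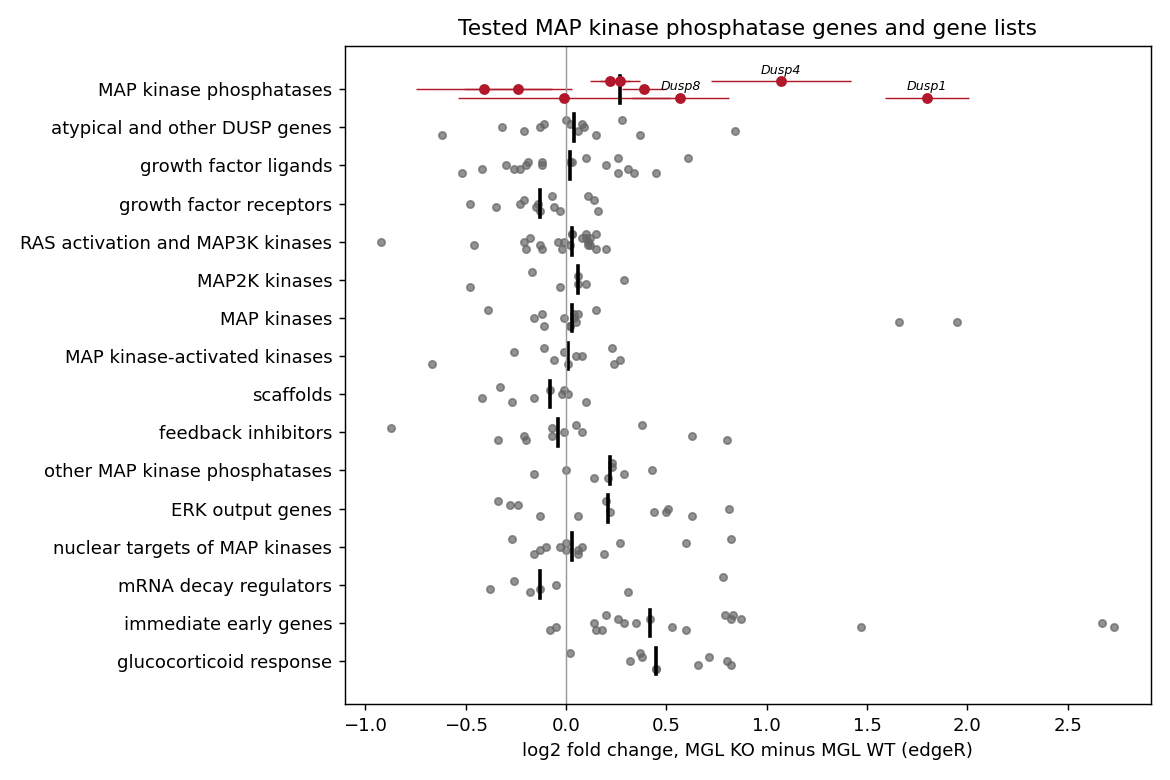
Log2 fold change (x axis, MGL KO minus MGL WT, edgeR) of the 9 tested phosphatase genes (red, bars are standard errors) and of the tested genes of 15 other lists (grey), with a black line at each median. The median is 0.27 for the phosphatases and 0.03 for the MAP kinases, and Dusp1 lies at 1.80.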

How the data were processed

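RNA was isolated from frozen mouse esophagi, selected for poly(A) tails and sequenced from 4 MGL KO and 4 MGL WT samples, grouped by the labels. According to the methods and processing notes, the authors checked reads with FastQC 0.11.9, trimmed adapters with cutadapt and aligned to GRCm39 with STAR 2.7.10b. The authors deposited raw counts per gene symbol. The counting tool, the annotation and the use of strand are not given in the sources used here. Every column of values belonged to a sample of the series.

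Of the 22721 genes with a count, filterByExpr (minimum count 10) kept 14864, which were compared by the quasi-likelihood test of edgeR 4.0.16 (R 4.3.3, limma 3.58.1) with TMM factors and Benjamini-Hochberg adjustment at 0.05. The standard error is the size of the log2 fold change over the square root of F. CPM use the kept library size times the TMM factor, and CPM per kb the union of exons in GENCODE vM39. Deviations use log2 CPM with a prior count of 1. Promoter sequences are those of the GRCm39 genome. The RefSeq promoter table, on another build, and protein sequences were not used here.

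The members and gene lists were chosen with earlier results of these data known. Genes named are the members, Mgll, in each pathway list up to 3 with the largest change among separated groups and up to 2 with the highest level, up to 3 of each response list, and the genes most like a member. Others, such as Mapk10, Mapk15, Maff, Des, single leukocyte markers and genes that overlap a member, were named after their values or positions were seen. The study's methods name edgeR, whose exact test was an alternative, beside DESeq2 1.42.0, limma-voom with quality weights, other scaling and filters, the replicate block and leaving out each library. Adding 2 marker covariates and leaving out MGL KO replicates 2 and 4 together or Des from the smooth muscle markers were chosen after seeing the data. The fits were tested on simulated data. Depth was 13.5 to 17.1 M counts, and limits from it cover counting error only.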

Additional observations from a re-analysis of the deposited data

Results flagged for a closer look

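In 66 comparisons of a value within its group of 4 libraries, 5 had 1 library far from the rest, where chance gives about 3.3. None of the 5 was a member of the MAP kinase phosphatases. MGL KO replicate 4 was low in the sum of the atypical DUSP genes, at 406.6 CPM (others of its group at least 454.5), and high in the leukocyte markers, at 1497.7 CPM (others at most 263.6), of which Lyz2 gave 1397.5, and in the airway markers, at 8969.0 CPM (others at most 938.8). MGL WT replicate 1 was low in the MAP kinase-activated kinases, at 1082.5 CPM (others at least 1166.5). MGL WT replicate 3, where Dusp10 was highest of its group, was low in the basal squamous markers, at 3995.4 CPM (others at least 5538.4).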

How the results depend on the processing

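The count of 7 genes that differed between MGL KO and MGL WT was 65 in edgeR's exact test after the filter, 42 in that test on every gene with a count, 138 with DESeq2, 25 with quality weights in limma-voom, 30 with skeletal muscle markers as a covariate, 2 without a filter, 2 without MGL KO replicates 2 and 4, and 2 to 5 with each library left out in turn. Among pathway genes, 0 in the test as reported, it was 3, 2, 4, 2 and 1 in the first 5 of these settings, in this order, and 0 with each library left out. Among members, the count of 1 (Dusp1) was 0 without a filter and without MGL KO replicates 2 and 4, and 0 to 1 with each library left out, being kept without MGL KO replicate 1. The cause was not tested, except that leaving out libraries reduces their number by construction. Other scaling or a stricter filter left Dusp1 called.

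The log2 fold changes of Dusp1, Dusp2, Dusp4, Dusp6, Dusp7, Dusp8 and Dusp16 kept their sign in each of the 20 settings, Dusp10 in 19 of 20 and Dusp5 in 13 of 19, where that of Dusp5 was near 0 as reported. Of the 10 places in the order of levels, 5 were kept with the longest transcript as the length. The median correlation between members, 0.00, was -0.07 to 0.13 with each library left out.

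With the replicate number as a replicate block, 2 genes and 0 members were called, and Dusp1 had a log2 fold change of 1.75. The deviations of same-numbered libraries correlated at -0.14, -0.28, -0.14 and 0.08, so these libraries were not alike in their deviations. The labels do not say whether they share more than a number, and these values cannot decide it.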
